A study of Mus musculus with 9 samples.

Results

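The 9 genes described here act at both ends of the type I interferon response. They are the RNA sensor genes Ddx58, Ifih1, Dhx58, Tlr3, Eif2ak2 and Zbp1 and the transcription factor genes Irf7, Irf9 and Stat2. They were chosen by name, with earlier results of these data known. They are 9 of the 52780 genes in the deposited count table, and all 9 had enough counts to be tested. Their mRNA was measured in C2C12 cells, an established line of mouse myoblasts that fuse into myotubes in culture, at day 4 of differentiation. There were 3 groups of 3 samples. In the si mH2A1.1 group, siRNA against macroH2A1.1 was delivered repeatedly at 10 nM. In the si mH2A1.2 group, siRNA against macroH2A1.2 was delivered in the same way. These are the splice isoforms of the histone variant macroH2A1, and both are encoded by H2afy. The control samples carry the genotype label wild type and are called si Ctrl here, after the name that the study gives its controls. The labels do not say whether the sequenced controls were transfected, so against them the knockdown and the transfection cannot be told apart. Both knockdown groups were transfected, but with siRNAs of different sequence. Between them, the loss of an isoform and an effect of the siRNA sequence cannot be told apart. The study lists a pair of siRNAs for each isoform and does not say which of them these samples received. The question was whether the sensors and the STAT and IRF factors were higher in the samples in which interferon target genes were higher.

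Cells recognise double-stranded RNA with cytosolic helicases (RIG-I, encoded by Ddx58, and MDA5, encoded by Ifih1) and with the endosomal receptor TLR3. Their adaptors and kinases activate IRF factors, which turn on type I interferon genes. Interferon binds its receptor and the JAK kinases phosphorylate STAT factors, among them STAT2, which joins IRF9 in the complex ISGF3. ISGF3 binds the interferon-stimulated response element (ISRE) of target genes, and many sensors and factors of the pathway are themselves such targets.

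Totals ranged from 36924252 to 42223108 counts per sample, so the floor of 3 counts equalled 0.0691 to 0.0826 CPM, the unit of counts scaled to a common library size after TMM. None of the 9 genes had fewer than 13 counts in any sample. The targeted gene H2afy, whose counts sum both isoforms, was at 59.9 ± 3.18 CPM (SD, n = 3) in si Ctrl, 33.3 ± 4.87 CPM in si mH2A1.1 and 45.7 ± 2.20 CPM in si mH2A1.2. Against si Ctrl this was a log2 fold change of -0.85 with si mH2A1.1 (adjusted p = 0.00331, edgeR with Benjamini-Hochberg adjustment) and -0.39 with si mH2A1.2 (adjusted p = 0.108). The 6 myotube markers summed to 11300 to 15700 CPM in si Ctrl, 9890 to 10900 CPM in si mH2A1.1 and 10200 to 12900 CPM in si mH2A1.2. The 3 myoblast markers summed to 109 to 143, 132 to 161 and 81.7 to 111 CPM. None of these 9 genes was called against si Ctrl with either knockdown, but they did not all go one way. The sarcomeric myosin gene Myh3, the most abundant of them, averaged 6780 CPM in si Ctrl and 4670 CPM in si mH2A1.1, where all samples were lower, and Myog averaged 666 and 421 CPM, also all lower. Ckm, the muscle creatine kinase gene, averaged 341 CPM in si Ctrl, 463 CPM in si mH2A1.1 and 210.0 CPM in si mH2A1.2. Myf5 averaged 46.3, 58.3 and 25.9 CPM and Pax7 3.00, 4.69 and 1.88 CPM. All si mH2A1.1 samples were above all others for Ckm, Myf5 and Pax7, and these 3 were called higher with si mH2A1.1 between the knockdowns, by 1.14, 1.17 and 1.32 on the log2 scale (adjusted p = 0.00241, 0.00203 and 0.00811, edgeR). The 8 markers of macrophages and other leukocytes summed to 3.94 to 5.09 CPM in si Ctrl, 7.16 to 12.8 CPM in si mH2A1.1 and 4.20 to 4.46 CPM in si mH2A1.2. In that list Cd68, a lysosomal protein that is abundant in macrophages, had a log2 fold change of 1.62 with si mH2A1.1 (adjusted p = 0.00565, edgeR). The defining marker Adgre1 was at 0 in all si Ctrl and si mH2A1.1 samples, Ptprc was at 9 counts or fewer in every sample, and 4 of the 8 markers were at 3 counts or fewer in every sample of each group. The 3 endothelial and the 3 epithelial markers each summed to at most 1.42 CPM in every sample. The part of the leukocyte, myotube and myoblast markers in the results was not tested. In bulk RNA, more cells with a transcript and more RNA per cell cannot be told apart.

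The promoters of the 9 genes are shown for the letters of the ISRE, to which the products of Irf9 and Stat2 bind. RefSeq windows on GRCm38.p6, from 250 bases before to 50 bases after the start, were given for 7 of the 9 genes, and Zbp1 and Dhx58 had none. The letters searched on both strands were GAAA, any 2 bases and GAAA again, and they were in the windows of 4 of these 7 genes (57.1%). They were also in 18 of 36 interferon target genes (50.0%) and in 3.99% of all 27025 genes with a window. The matches are printed on the strand of the gene with the motif in capitals, where TTTC on both sides is the same motif on the opposite strand.
Ifih1, chr2:62646206-62646233, minus strand, bases 33 to 42 after the start: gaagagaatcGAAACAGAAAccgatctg
Ddx58, chr4:40239804-40239833, minus strand, bases 3 to 12 after the start: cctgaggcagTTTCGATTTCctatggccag
Eif2ak2, chr17:78882535-78882564, minus strand, bases 19 to 28 after the start: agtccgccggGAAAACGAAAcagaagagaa
Stat2, chr10:128270266-128270295, plus strand, bases 222 to 213 before the start: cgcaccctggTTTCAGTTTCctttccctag
Those of Ifih1, Ddx58 and Eif2ak2 lay just after the start, and that of Stat2 lay farther upstream. The windows of Tlr3, Irf7 and Irf9 did not hold these letters. The letters TTCNNNGAA of the GAS element, the site of STAT dimers, were in 1 of the 7 genes, Eif2ak2, where they did not overlap the ISRE match, and in 9.55% of all genes with a window. A match describes the letters and not binding, which was not measured here.

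With si mH2A1.1, the sensors and factors were higher than in si Ctrl almost throughout. Of the 9 genes, 7 were called higher and 0 lower, where 1.31% of the 19545 genes tested were called higher and 0.491% lower. To be called, a gene needed both an adjusted p under 0.01 and a log2 fold change of 0.8 or more in either direction. The called genes were Zbp1, Irf7, Ifih1, Tlr3, Irf9, Ddx58 and Eif2ak2. All 3 si mH2A1.1 samples lay above all 3 si Ctrl samples for all 9 genes, as they did for 17.5% of the genes tested. The median log2 fold change of the 9 genes was 2.00, and that of all genes tested was -0.009. None of the 9 was called when si mH2A1.2 was compared with the same si Ctrl samples.

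**Figure D1:**
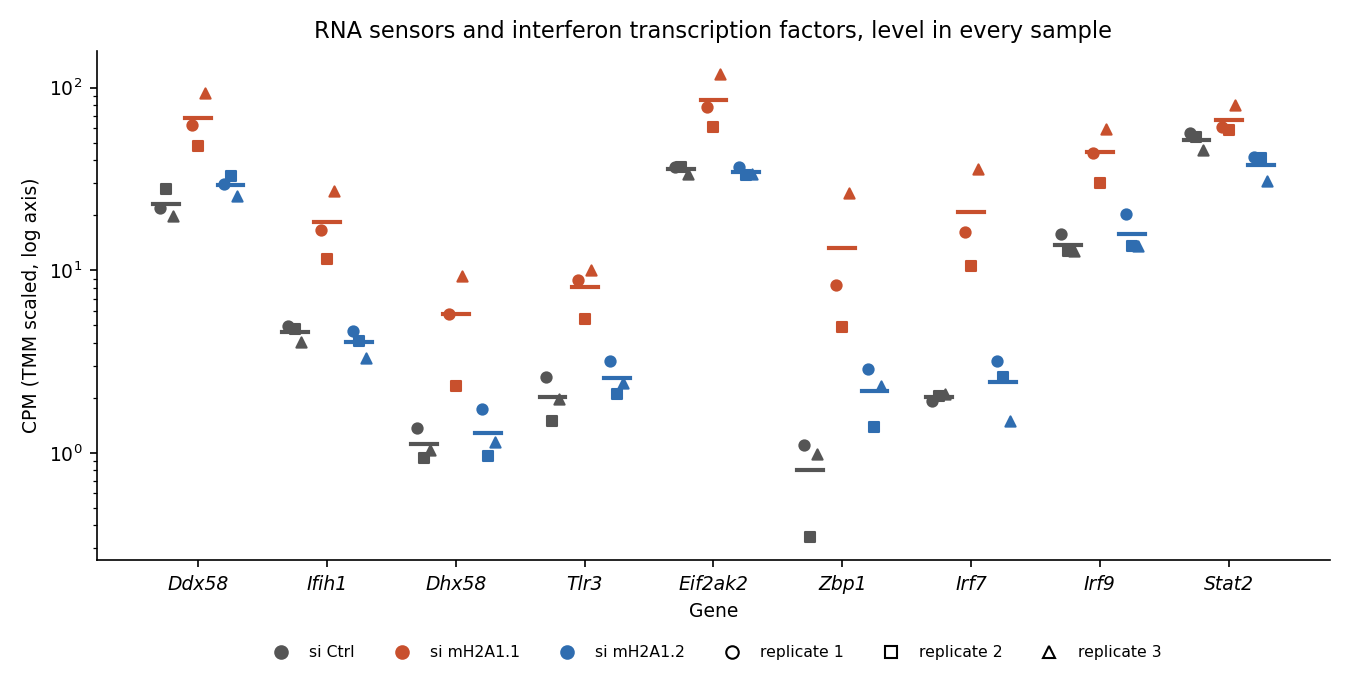
CPM of each gene (log axis) in every sample, coloured by group, with a marker shape for each replicate and a bar at the group mean. The si mH2A1.1 points lie above the si Ctrl and si mH2A1.2 points for all 9 genes, widely for Irf7 and Zbp1 and narrowly for Stat2, whose highest si Ctrl sample is at 56.3 CPM and lowest si mH2A1.1 sample at 58.5 CPM.

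Among the RIG-I-like receptors, Ddx58 (ENSMUSG00000040296, chromosome 4, 40203773 to 40239828, minus strand) encodes RIG-I, which binds short double-stranded RNA with a triphosphate end. Ddx58 was at 21.9, 27.7 and 19.9 CPM in si Ctrl replicates 1, 2 and 3, at 62.4, 48.0 and 93.7 CPM in si mH2A1.1 and at 29.7, 32.9 and 25.6 CPM in si mH2A1.2. The lowest si mH2A1.1 sample was above the highest of the other 6, while si Ctrl and si mH2A1.2 overlapped. It rose from 23.2 ± 4.04 to 68.0 ± 23.4 CPM with si mH2A1.1 (SD, n = 3 each), or 1.55 on the log2 scale (standard error 0.23, adjusted p = 0.00461, edgeR). Ifih1 (ENSMUSG00000026896, chromosome 2, 62595798 to 62646255, minus strand) encodes MDA5, which binds long double-stranded RNA. Ifih1 was at 4.93, 4.74 and 4.05 CPM in si Ctrl, at 16.6, 11.5 and 27.0 CPM in si mH2A1.1 and at 4.65, 4.12 and 3.30 CPM in si mH2A1.2. Its si mH2A1.1 samples stood apart from the rest, and the other groups overlapped. The rise was from 4.57 ± 0.463 to 18.3 ± 7.89 CPM, or 2.00 on the log2 scale (standard error 0.28, adjusted p = 0.00415, edgeR). Dhx58 (ENSMUSG00000017830, chromosome 11, 100694884 to 100704271, minus strand) encodes LGP2, a helicase without the signalling domains of the other RIG-I-like receptors that modulates their signalling. Dhx58 was at 1.37, 0.933 and 1.03 CPM in si Ctrl, at 5.73, 2.32 and 9.33 CPM in si mH2A1.1 and at 1.73, 0.965 and 1.15 CPM in si mH2A1.2. All si mH2A1.1 samples were above all others, but they were spread from 94 to 405 counts. A log2 fold change of 2.38 (95% interval from 1.38 to 3.38, adjusted p = 0.0124, edgeR) missed the threshold, while DESeq2 gave an adjusted p of 3.75e-06. With replicates as blocks in edgeR, Dhx58 was also called, at a log2 fold change of 2.26 (adjusted p = 0.00508).

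Tlr3 (ENSMUSG00000031639, chromosome 8, 45395665 to 45411080, minus strand) encodes the endosomal receptor for double-stranded RNA. Tlr3 was at 2.60, 1.49 and 1.96 CPM in si Ctrl, at 8.89, 5.38 and 9.98 CPM in si mH2A1.1 and at 3.19, 2.11 and 2.42 CPM in si mH2A1.2. Every si mH2A1.1 sample was above 5 CPM and every other sample was below 4. Tlr3 rose from 2.02 ± 0.554 to 8.08 ± 2.40 CPM with si mH2A1.1, or 2.00 on the log2 scale (standard error 0.29, adjusted p = 0.00441, edgeR). Eif2ak2 (ENSMUSG00000024079, chromosome 17, 78852564 to 78882573, minus strand) encodes PKR, a kinase that is activated by double-stranded RNA and stops translation by phosphorylating eIF2α. Eif2ak2 was at 37.0, 36.6 and 33.6 CPM in si Ctrl, at 78.6, 60.6 and 119 CPM in si mH2A1.1 and at 36.7, 33.4 and 33.8 CPM in si mH2A1.2. The other 6 samples lay within a narrow range, with all si mH2A1.1 samples above it. Eif2ak2 rose from 35.7 ± 1.87 to 86.0 ± 29.8 CPM, or 1.27 on the log2 scale (standard error 0.20, adjusted p = 0.00574, edgeR). Zbp1 (ENSMUSG00000027514, chromosome 2, 173206612 to 173218923, minus strand) encodes a sensor of Z-form nucleic acids that can start necroptosis through RIPK3. Zbp1 was at 1.1, 0.346 and 0.980 CPM in si Ctrl, at 8.27, 4.89 and 26.4 CPM in si mH2A1.1 and at 2.86, 1.38 and 2.31 CPM in si mH2A1.2. It was the 1 gene of the 9 with no overlap between any groups and si mH2A1.2 in the middle. The rise with si mH2A1.1 was the largest of the 9, from 0.808 ± 0.404 to 13.2 ± 11.6 CPM, or 4.02 on the log2 scale (standard error 0.66, adjusted p = 0.00671, edgeR). Behind its si Ctrl values stood 41, 13 and 38 counts.

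Of the transcription factors, Irf7 (ENSMUSG00000025498, chromosome 7, 141262706 to 141266481, minus strand) encodes IRF7, which amplifies type I interferon expression. Irf7 was at 1.93, 2.05 and 2.11 CPM in si Ctrl, at 16.1, 10.6 and 35.9 CPM in si mH2A1.1 and at 3.17, 2.61 and 1.50 CPM in si mH2A1.2. The si Ctrl samples were close together, the si mH2A1.2 samples lay on both sides of them, and all si mH2A1.1 samples were far above. Irf7 rose from 2.03 ± 0.0951 to 20.8 ± 13.3 CPM, or 3.36 on the log2 scale (standard error 0.44, adjusted p = 0.00329, edgeR). Irf9 (ENSMUSG00000002325, chromosome 14, 55603571 to 55610030, plus strand) encodes the DNA-binding subunit of ISGF3. Irf9 was at 15.7, 12.7 and 12.8 CPM in si Ctrl, at 44.1, 30.1 and 59.6 CPM in si mH2A1.1 and at 20.3, 13.5 and 13.6 CPM in si mH2A1.2. Its lowest si mH2A1.1 sample exceeded its highest other sample, and si Ctrl and si mH2A1.2 overlapped. Irf9 rose from 13.7 ± 1.68 to 44.6 ± 14.7 CPM, or 1.70 on the log2 scale (standard error 0.25, adjusted p = 0.00453, edgeR). Stat2 (ENSMUSG00000040033, chromosome 10, 128270559 to 128292849, plus strand) encodes the STAT2 subunit of ISGF3. Stat2 was at 56.3, 53.7 and 45.5 CPM in si Ctrl, at 60.8, 58.5 and 80.3 CPM in si mH2A1.1 and at 41.8, 41.3 and 30.7 CPM in si mH2A1.2. The 3 groups did not overlap, but replicates 1 and 2 of si mH2A1.1 were close to the highest si Ctrl sample. Its log2 fold change with si mH2A1.1 was 0.36 (standard error 0.16, 95% interval from 0.01 to 0.71, adjusted p = 0.155, edgeR), so Stat2 was not called.

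The 7 calls depended on single samples. Without si Ctrl replicate 1, 1 gene was called, and without si Ctrl replicate 2 or replicate 3, 0 were. Without si mH2A1.1 replicate 1 or replicate 3, 1 was called, and without si mH2A1.1 replicate 2, 8 were. Over all genes tested, these fits and those without a si mH2A1.2 sample called 32 to 546, against 352 with all samples. In them 8 or 9 of the 9 genes had an unadjusted p under 0.05 in edgeR, as had 5789 of the 19545 genes tested with all samples. The adjusted p of the 7 genes was at most 0.0335 in these fits, and their log2 fold changes were between 0.96 and 4.42.

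With si mH2A1.2, none of the 9 genes was called against si Ctrl in edgeR, with or without the replicate block, or in DESeq2. In edgeR, 0.128% of the genes tested were called higher and 0.0512% lower in that comparison, with the block 0.373% and 0.22%, and in DESeq2 1.39% and 0.854%. At an unadjusted p under 0.05, edgeR and DESeq2 each had 1 of the 9 and the block had 2, where edgeR had 3109 of the 19545 genes tested. The median log2 fold change was 0.21, against 0.00 for all genes tested. The values furthest from 0 were those of Zbp1 and Stat2, in opposite directions. Zbp1 was at 2.19 ± 0.748 CPM, with all 3 samples above si Ctrl, as for 11.7% of the genes tested. Its log2 fold change was 1.43 (standard error 0.65, 95% interval from -0.02 to 2.87, adjusted p = 0.32, edgeR). Stat2 was at 38.0 ± 6.29 CPM, with all 3 samples below si Ctrl, as for 10.8% of the genes tested. Its log2 fold change was -0.45 (standard error 0.16, 95% interval from -0.80 to -0.10, adjusted p = 0.191, edgeR). For the other 7 genes the si mH2A1.2 and si Ctrl samples overlapped. Their log2 fold changes were 0.35 for Ddx58, -0.18 for Ifih1, 0.21 for Dhx58, 0.35 for Tlr3, -0.04 for Eif2ak2, 0.26 for Irf7 and 0.20 for Irf9. The 95% interval reached 0.84 for Ddx58, 0.44 for Ifih1, 0.39 for Eif2ak2 and 0.75 for Irf9, and it was wider for Dhx58 (-0.82 to 1.24), Tlr3 (-0.29 to 0.99) and Irf7 (-0.71 to 1.22). The intervals of Ddx58, Dhx58, Tlr3, Irf7 and Zbp1 held both 0 and 0.8, so a change of 0.8 could not be told from 0 for these 5 genes.

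The difference between the knockdowns was tested directly, in a comparison that does not use the si Ctrl samples for the fold change. Between si mH2A1.1 and si mH2A1.2, 8 of the 9 genes were called higher with si mH2A1.1, where 3.54% of the genes tested were. All si mH2A1.1 samples were above all si mH2A1.2 samples for all 9 genes, as for 20.3% of the genes tested. The median log2 fold change was 1.65. Of the 8 called genes, Irf7 differed most, by 3.10 on the log2 scale (standard error 0.43, adjusted p = 0.00129, edgeR), followed by Ifih1 at 2.19 (adjusted p = 0.000873) and Dhx58 at 2.17 (adjusted p = 0.00788). Tlr3 followed at 1.65, Irf9 at 1.50, Eif2ak2 at 1.31 and Ddx58 at 1.21, with adjusted p between 0.00191 and 0.00506. Stat2 was called in this comparison, at 0.81 (standard error 0.16, adjusted p = 0.00642), with si mH2A1.1 at 66.5 ± 12.0 CPM and si mH2A1.2 at 38.0 ± 6.29 CPM on either side of si Ctrl at 51.8 ± 5.65 CPM. Zbp1 missed the threshold at 2.59 (standard error 0.60, adjusted p = 0.0132), and it was called with the replicate block (2.35, adjusted p = 0.0028) and in DESeq2 (adjusted p = 0.00275). Without si mH2A1.1 replicate 1 or 3, 3 and 4 of the 9 genes were called, and without si mH2A1.2 replicate 1, 2 or 3, 5, 2 and 3 were. In each of these fits all 9 had an unadjusted p under 0.05 in edgeR, as had 7076 of the 19545 genes tested with all samples.

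**Figure D2:**
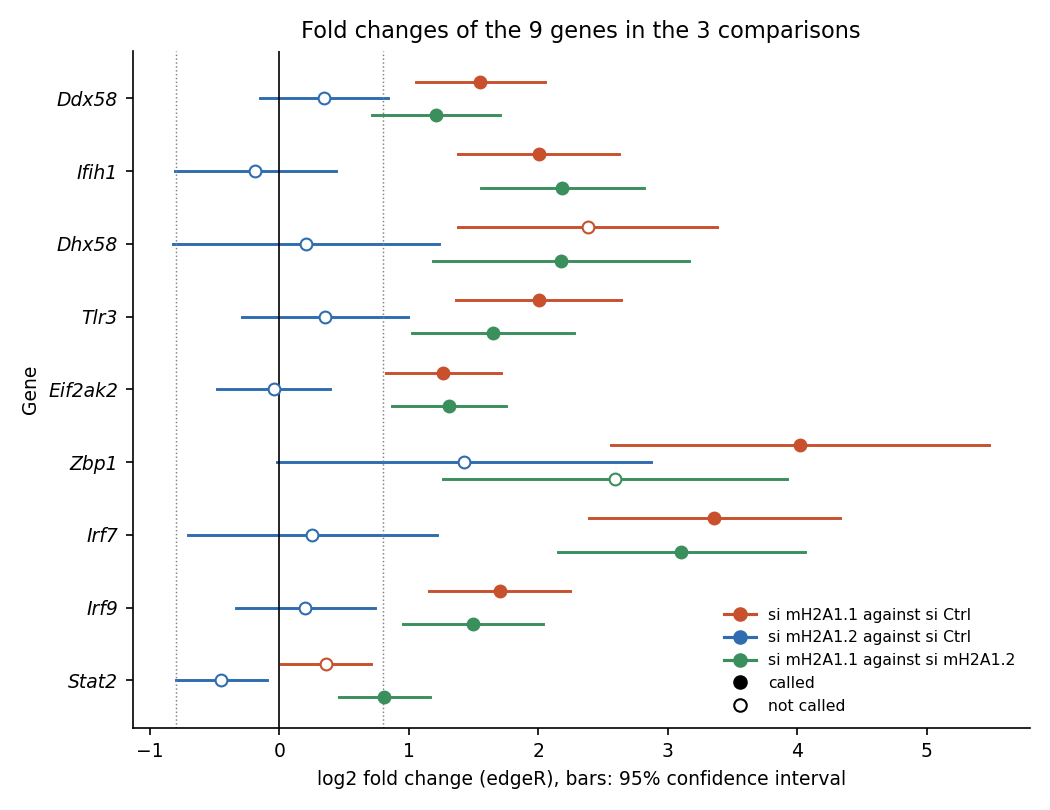
Log2 fold changes of the 9 genes from edgeR with 95% confidence intervals in the 3 comparisons, filled where called, with dotted lines at -0.8 and 0.8. Both comparisons with si mH2A1.1 lie right of 0 for all 9 genes, from 0.36 (Stat2) to 4.02 (Zbp1) against si Ctrl, and the si mH2A1.2 intervals include 0 except for Stat2.

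Levels were compared between genes per length, as CPM per kb of exon. The length joins the exons of all annotated transcripts, so it can exceed that of the mRNA present. For Irf7 it was 3776 bp, the whole span of the gene. The order of genes depends on these lengths. In si Ctrl, Stat2 was the most abundant of the 9 at 8.74 ± 0.954 CPM per kb, followed by Eif2ak2 at 6.99 ± 0.365, Ddx58 at 3.29 ± 0.573 and Irf9 at 2.55 ± 0.312. The order went on with Ifih1 (0.560 ± 0.0567), Irf7 (0.538 ± 0.0252), Tlr3 (0.387 ± 0.106), Dhx58 (0.339 ± 0.0693) and Zbp1 (0.229 ± 0.114). The neighbours Ddx58 and Irf9, Ifih1 and Irf7, Tlr3 and Dhx58, and Dhx58 and Zbp1 overlapped in their 3 samples, and the other neighbours did not. In si mH2A1.1, Eif2ak2 came first at 16.8 ± 5.82 CPM per kb, before Stat2 at 11.2 ± 2.02 and Ddx58 at 9.65 ± 3.32. Irf9 (8.28 ± 2.73), Irf7 (5.52 ± 3.53), Zbp1 (3.74 ± 3.27), Ifih1 (2.24 ± 0.967), Dhx58 (1.77 ± 1.07) and Tlr3 (1.55 ± 0.461) followed, and every pair of neighbours overlapped. In si mH2A1.2 the order began with Eif2ak2 (6.78 ± 0.354), Stat2 (6.41 ± 1.06), Ddx58 (4.17 ± 0.512) and Irf9 (2.93 ± 0.727), and the other 5 genes had means between 0.393 and 0.643 CPM per kb.

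The 3 si mH2A1.1 samples differed in height in the same order for every gene. Replicate 3 was the highest and replicate 2 the lowest for all 9 genes, an order that 11.3% of the genes tested had. It also held for 41 of the 43 tested interferon targets (95.3%), for 4 of 19 adaptors and kinases and for 4 of 12 NF-kB targets. Over the si Ctrl mean, the median log2 CPM of the 9 genes was 1.85, 1.14 and 2.31 higher in replicates 1, 2 and 3 of si mH2A1.1. That of the interferon targets was 2.51, 1.55 and 3.39 higher, so that the sample with the most sensor mRNA was also the one with the most target mRNA. In replicate 3, the CPM of Zbp1 was 32.7 times and that of Irf7 17.7 times the mean si Ctrl CPM, where replicate 2 was at 6.05 and 5.20 times. In si mH2A1.2 the medians were 0.57, -0.02 and 0.00 for the 9 genes and 0.34, 0.20 and 0.19 for the interferon targets. The spread between the si mH2A1.1 samples is part of the standard errors above, and with 3 samples a group no relation across samples was tested.

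**Figure D3:**
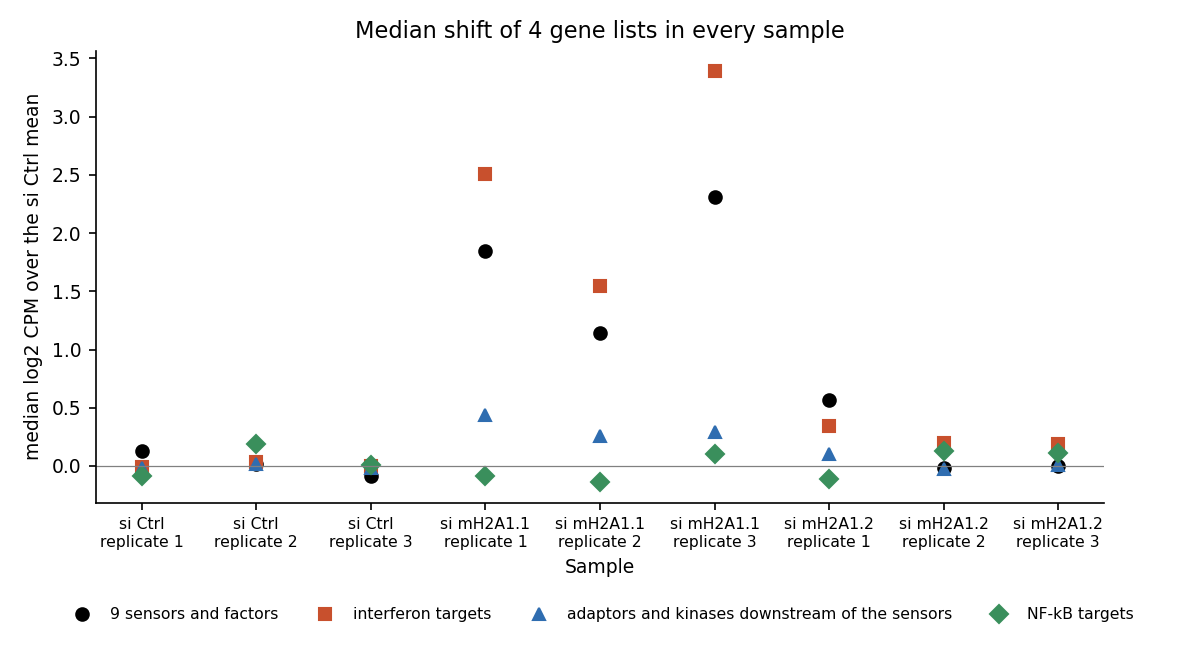
Median log2 CPM over the si Ctrl mean for 4 gene lists (points) in each of the 9 samples (horizontal axis). The 9 sensors and factors and the interferon targets are both highest in si mH2A1.1 replicate 3, at 2.31 and 3.39, while the NF-kB targets stay between -0.14 and 0.19 in all samples.

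The other genes of the pathway were examined list by list to see which layers moved with the 9 genes. Of 45 interferon targets, 43 were tested, and 30 were called higher with si mH2A1.1 and 0 lower, with a median log2 fold change of 2.66. The single largest values were those of OAS genes, which make the second messenger of RNase L. Oas1g was at 0 counts and Oas1a at 1 to 2 counts in the si Ctrl samples, and they reached 40 to 520 and 194 to 1369 counts in si mH2A1.1, although estimated counts can be split between such similar copies. Oas2 was at 0.129 to 0.240 CPM in si Ctrl and at 84.7, 29.3 and 185 CPM in si mH2A1.1. Gbp3, an interferon-induced GTPase gene, had a log2 fold change of 4.94 (adjusted p = 0.0046, edgeR), and Oas3 one of 4.72 (adjusted p = 0.00468). With si mH2A1.2, 0 of the 43 were called in edgeR and 0 of 45 in DESeq2 (8 and 10 at an unadjusted p under 0.05). By sign 28 were above 0, and the median was 0.29. Every si mH2A1.2 sample lay above every si Ctrl sample for 13 of the 43, as for 11.7% of the genes tested. The reverse held for 3 of the 43, and for 10.8% of the genes tested. Among the 19545 genes tested in edgeR, 3109 were at an unadjusted p under 0.05 and 9767 were above 0 by sign. Between the knockdowns, 33 were called higher with si mH2A1.1, with a median of 2.29. Against si Ctrl, 7 of the 9 sensors and factors and 30 of the 43 targets were thus called higher with si mH2A1.1, and 0 of either with si mH2A1.2. The 30 calls fell to 4, 0 and 0 without si Ctrl replicate 1, 2 or 3. They fell to 9, 13 and 15 without si mH2A1.1 replicate 1, si mH2A1.1 replicate 3 or si mH2A1.2 replicate 2. In each of these fits 42 to 44 of the targets had an unadjusted p under 0.05 in edgeR, as had 5789 of the 19545 genes tested with all samples. The 33 calls between the knockdowns fell to 19 without si mH2A1.1 replicate 1 and to 10 without si mH2A1.2 replicate 2 or replicate 3.

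In the signalling layer between the sensors and the factors, few genes passed the threshold. Of 19 adaptors and kinases downstream of the sensors, 1 was called higher with si mH2A1.1 (9 at an unadjusted p under 0.05, edgeR), and the median log2 fold change was 0.42. At that unadjusted p edgeR had 5789 of the 19545 genes tested in the same comparison. For 10 of the 19, all si mH2A1.1 samples lay above all si Ctrl samples, as for 17.5% of the genes tested. For Ikbkg they all lay below. By sign 14 of the 19 were above 0, as were 9603 of the 19545 genes tested. The called gene was Fadd, a death domain adaptor, at 4.22 ± 0.29 CPM in si Ctrl and 7.88 ± 1.19 CPM in si mH2A1.1 (log2 fold change 0.90, adjusted p = 0.00886, edgeR). Mavs, the mitochondrial adaptor of RIG-I and MDA5, was at 39.4, 41.9 and 42.7 CPM in si Ctrl and at 41.2, 40.0 and 36.4 CPM in si mH2A1.1. The groups overlapped, and its log2 fold change was -0.08 (adjusted p = 0.673, edgeR).

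Of the interferons, receptors and JAK/STAT partners, 10 of 21 genes had enough counts to be tested, with a median log2 fold change of -0.04. Ifnb1, which encodes interferon beta, had 3, 0 and 1 counts in si mH2A1.1 and 0 in all other samples, at or below the floor of 3 counts, so no change in it could be detected at this depth.

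Of the other interferon regulatory factors, 6 of 7 were tested and 0 were called with si mH2A1.1 in edgeR (3 at an unadjusted p under 0.05, and 2 called in DESeq2), with a median of 0.46. Irf3, the constitutive factor that the sensors activate first, was at 31.4 ± 1.83 CPM in si Ctrl and 28.5 ± 2.18 CPM in si mH2A1.1 (log2 fold change -0.14, adjusted p = 0.476, edgeR). Irf4, a factor of lymphoid cells, was called between the knockdowns, with a log2 fold change of 2.25 (adjusted p = 0.00631, edgeR). Irf4 was at 3 to 8 counts in si Ctrl and at 27 to 31 counts in si mH2A1.1.

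Of the other nucleic acid sensors and RNA editing genes, 11 of 15 were tested and 2 were called higher with si mH2A1.1, with a median of 0.12. Ddx60, a helicase that assists RIG-I, rose from 0.721 ± 0.0476 to 11.2 ± 9.95 CPM (log2 fold change 3.96, adjusted p = 0.00613, edgeR). Adar, which edits double-stranded RNA and so lowers its recognition by MDA5, rose from 36.7 ± 3.61 to 80.4 ± 18.7 CPM (1.13, adjusted p = 0.00854). Of 13 negative regulators, 1 was called higher, with a median of 0.03. It was Usp18, which removes ISG15 from proteins and blocks the interferon receptor, at 0.318 ± 0.142 CPM in si Ctrl and 15.8 ± 11.8 CPM in si mH2A1.1 (5.63, adjusted p = 0.00368). Nlrc5, a regulator of MHC class I genes, was called between the knockdowns, at 2.68 (adjusted p = 0.000861). Of 14 NF-kB targets, 12 were tested (14 in DESeq2) and 0 were called in edgeR or DESeq2 (3 at an unadjusted p under 0.05 in each), with a median of -0.05. Among all 19545 genes tested in edgeR, 5789 had an unadjusted p under 0.05 with si mH2A1.1 against si Ctrl. No gene of these lists was called lower with si mH2A1.1 against si Ctrl in edgeR or DESeq2. The calls of Fadd, Ddx60, Adar and Usp18 against si Ctrl all fell to 0 without any 1 of the 3 si Ctrl samples, or without si mH2A1.1 replicate 1 or replicate 3. With si mH2A1.2, 0 genes of any list were called in edgeR without the replicate block. With the block, and without the filter on low counts, edgeR called 1 other IRF lower, and DESeq2 called 1 other IRF and 1 other sensor lower. At an unadjusted p under 0.05 edgeR had 3 of 10 receptor and JAK/STAT genes, 2 of 19 adaptors and kinases and 1 of 6 other IRFs. It also had 1 of 11 other sensors, 2 of 13 negative regulators and 1 of 12 NF-kB targets. Among all 19545 genes tested with si mH2A1.2 against si Ctrl, 3109 were at that p.

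**Figure D4:**
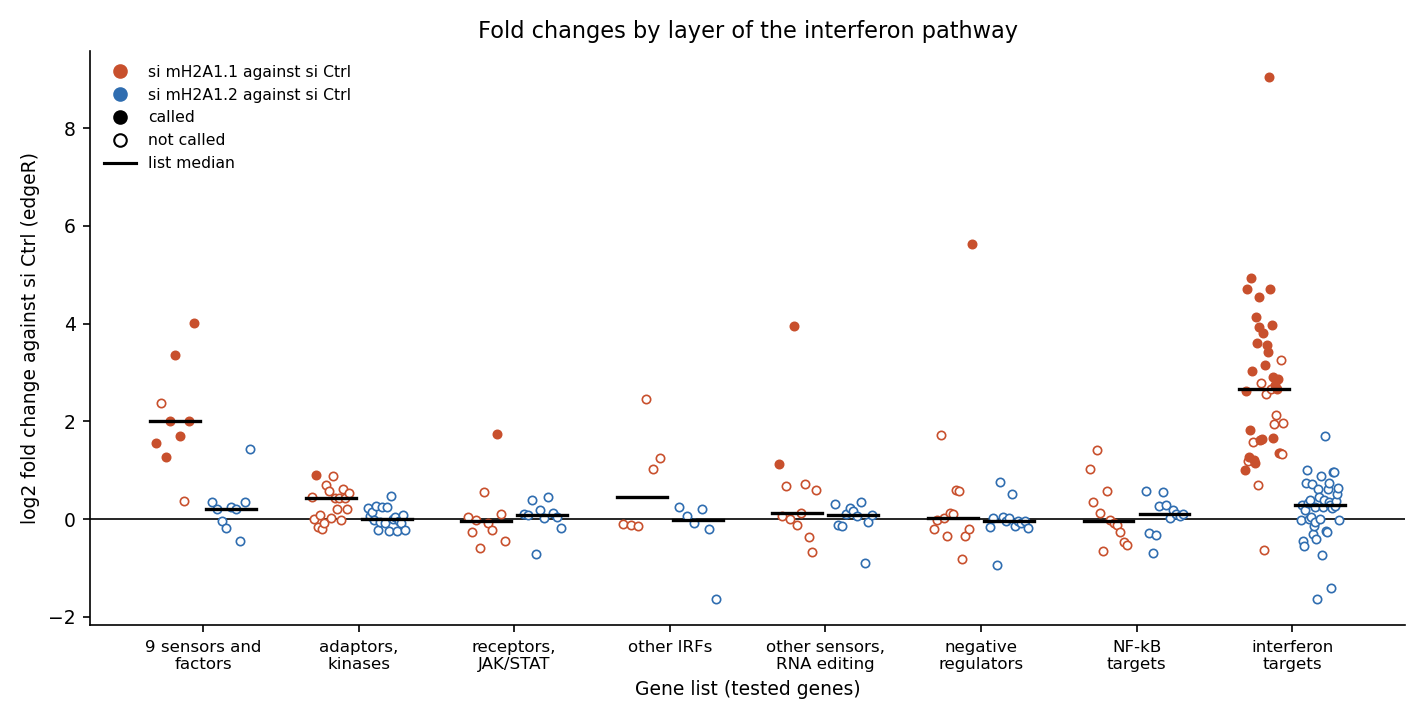
Log2 fold changes from edgeR against si Ctrl for the 9 genes and 7 lists of the pathway, with a point for each tested gene, filled where called, and a bar at the list median. With si mH2A1.1 the medians of the 9 genes (2.00) and the interferon targets (2.66) stand above those of the other 6 lists (-0.05 to 0.46), and Oas1a and Oas1g, with 3 counts or fewer in every si Ctrl sample, are in the median and have no point.

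The genes whose profile was most like the mean of the 9 were sought by the root mean square difference in log2 CPM over the 9 samples, after centring on si Ctrl. Of 14372 genes of at least 1 CPM on average, whose median difference was 1.21, 4 of the 5 nearest are given here. They were Parp9 (0.275), an ADP-ribosyltransferase family gene, and Siglecg (0.328), a sialic acid receptor gene. Herc6 (0.328), the ISG15 ligase of the mouse, and F2rl1 (0.333), a protease-activated receptor gene, were the others. Parp9 and Herc6 stand in the list of interferon targets. Against si Ctrl, Parp9 (log2 fold change 1.66, adjusted p = 0.00645, edgeR) and F2rl1 (1.98, adjusted p = 0.006) were called with si mH2A1.1, and Siglecg (1.64, adjusted p = 0.0104) and Herc6 (1.58, adjusted p = 0.0178) were not. Of the 9 genes themselves, Tlr3 (0.201), Irf9 (0.203), Dhx58 (0.248) and Ifih1 (0.263) lay nearest to their mean. Irf7 (0.724) and Zbp1 (1.34) lay above it in si mH2A1.1 and Stat2 (1.03) below.

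Exons of 5 of the 9 genes overlap another annotated gene, and the sources used here do not say whether reads were counted by strand. Phrf1, which overlaps Irf7, was at 73.0 CPM in si Ctrl and 76.3 CPM in si mH2A1.1 (log2 fold change 0.06, adjusted p = 0.691, edgeR). Rnf31, which overlaps Irf9, was at 31.7 and 26.8 CPM (-0.24, adjusted p = 0.216). It lies on the same strand as Irf9, so counting by strand would not separate this pair. Dhx58os, n-R5s29 and Gm45542, which overlap Dhx58, Eif2ak2 and Tlr3, had at most 25, 17 and 1 counts in any sample. Gm26637 also overlaps Eif2ak2 and was not analysed here.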

How the data were processed

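The authors sequenced poly(A)-selected RNA as single reads of 50 bp, quantified it with Salmon on GRCm38 (mm10 in the submitters' processing notes) and imported it with tximport. The deposited values used here are expected counts, estimated counts per gene in whole numbers, not scaled to library size. Their normalized version was not used. Gene names and positions came from GENCODE M21, which held 52762 of the 52780 genes. The study calls the samples of a group independent biological replicates.

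Counts were tested with edgeR 4.0.16 in R 4.3.3. The fit was the legacy quasi-likelihood form on all 9 samples, with TMM scaling, the filterByExpr filter (19545 genes kept) and Benjamini-Hochberg adjustment over them. Standard errors were derived from the F statistic. Calls needed an adjusted p under 0.01 beside a log2 fold change of 0.8 in either direction, and 0.05 was an alternative, since the study states both. DESeq2 1.42.0 was another alternative. The fits were also run on simulated counts with known changes and no pairing of samples, as a check of the code only. Log2 CPM used a prior count of 2. Floors of 3 counts cover counting error only. Lists are described by counts and medians.

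The 9 genes, the lists and the alternatives were chosen with earlier results of these data known. Named were the 9 genes, H2afy, Ifnb1, Mavs and Irf3, up to 5 called genes of each list by absolute log2 fold change, the 5 genes of most similar profile, and the cell type markers. A few genes that this rule names are not reported here. Same-numbered samples of si mH2A1.2 and si Ctrl deviated from their group means together (r = 0.196 to 0.331). For si mH2A1.1 and si Ctrl r was 0.0841 to 0.0976 and for both knockdowns 0.0917 to 0.116. The main fit did not pair the samples in any comparison, and the replicate number as a block was an alternative.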

Additional observations from a re-analysis of the deposited data

Results flagged for a closer look

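For 8 of the 9 genes the effect of one knockdown differed from that of the other by a direct test, edgeR's test of si mH2A1.1 against si mH2A1.2 with Benjamini-Hochberg adjustment. By that test 3.54% of the genes tested were called higher with si mH2A1.1. The difference in log2 fold change was 1.21 for Ddx58, 2.187 for Ifih1, 2.173 for Dhx58, 1.651 for Tlr3, 1.312 for Eif2ak2, 3.103 for Irf7, 1.497 for Irf9 and 0.81 for Stat2. Of the 9 fits with 1 sample left out, the call was lost in 8 for Dhx58, in 6 for Stat2 and in 0 for Ifih1 and Irf7. All 3 si mH2A1.1 samples were above all 3 si mH2A1.2 samples for each of these genes. For Stat2, si mH2A1.1 lay above and si mH2A1.2 below all si Ctrl samples, and neither difference from si Ctrl was called. The causes of these differences were not tested.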

How the results depend on the processing

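Depth limits Ifnb1, at 3 counts or fewer in every sample. The log2 fold changes of the 9 genes with si mH2A1.1 stayed above 0 under every alternative tried, against si Ctrl and against si mH2A1.2, and the counts of calls did not. Over the 3 comparisons and all alternatives, the values of single genes kept their direction and their side of the threshold 378 times, lost the call 69 times, gained it 10 times and turned direction 2 times. Against si Ctrl, 7 of the 9 genes were called with si mH2A1.1, 4 with only the samples of both groups in the fit, and 0 to 8 when 1 sample was left out. With si mH2A1.2, 0 were called under every alternative. Between the knockdowns, 8 were called, 5 with only the samples of both groups, and 2 to 9 with 1 sample left out. With the replicate block, 8, 0 and 9 genes were called, which added Dhx58 against si Ctrl and Zbp1 between the knockdowns, and all genes called numbered 795, 116 and 1742. In each comparison every sample correlated best with the sample of its own number, a hint from the data that the numbers pair them. The deposited column names also ran consecutively within each replicate number. Without the block, 352, 35 and 1247 genes were called in all. DESeq2 called 995, 368 and 1917, an adjusted p of 0.05 called 1146, 293 and 2264, and leaving out 1 sample gave 32 to 546, 0 to 31 and 505 to 1442. Without the filter on low counts, 800 and 252 genes were called against si Ctrl, and with only the samples of both groups 195 and 4. The values that turned direction were those with si mH2A1.2 and 1 sample left out of Dhx58 (-0.07 to 0.385) and Irf9 (-0.023 to 0.309). The cause of these changes was not tested.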
